A study of Macaca mulatta with 9 samples.

Results

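Kidneys of the donor pig line 3KO.7TG were sampled at a late and at an early stage after transplantation into rhesus macaques, and the late grafts are set here against the early ones. The comparison used 6 of the 9 libraries of the series: the 3 titled late R and the 3 titled early bx, taken by their titles. All 6 came from one donor line, from male animals and from formalin-fixed, paraffin-embedded renal biopsies. The line's name counts its knockouts and transgenes, but the labels name none of the altered genes, spell out neither R nor bx, and give no day after transplantation, immunosuppression or animal age. The late samples are all R and the early ones all bx, so stage and sample kind cannot be told apart. Nothing states whether a late and an early sample were taken from the same graft, or whether replicates are separate animals. The p-values therefore measure the spread between these samples, which may be technical. RNA molecules were counted by hybridisation to barcoded probes, with no amplification step, on the nCounter panel for human organ transplants, and the table held 767 probes.

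A kidney xenograft holds pig parenchyma and vessel walls perfused by primate blood, so its RNA mixes donor and host cells. Antibody and complement acting on the graft endothelium, clotting in its small vessels and infiltration by macrophages, neutrophils, natural killer cells and T cells are the processes best known in such grafts. Donor pigs are modified to remove carbohydrate antigens and to add human regulators of complement, coagulation and phagocytosis. The panel was designed against human transcripts. Apart from some reference probes that the table marks for macaque or pig, the sources used here do not say how a probe binds RNA of either species. A value is thus the signal of a probe, not the level of a named species' transcript.

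Total counts were 803232, 1620151 and 1599943 in late R replicates 1 to 3, against 824446, 657340 and 1191998 in early bx replicates 1 to 3. Levels are given as CPM, that is, counts plus 0.5 over the library size after trimmed-mean scaling, times 1e+06; the scaling factors lay between 0.924 and 1.06. The 4 viral probes, which serve here as a view of background, gave 1 to 17 counts. Of the 767 probes, 617 averaged at least 20 counts over the 6 libraries. Renal tissue was visible in the probe for UMOD, the uromodulin of the thick ascending limb, which reached 3043 to 39539 CPM. Several other kidney-defining probes were near background in every library: LRP2 of the proximal tubule, NPHS1 of podocytes, SLC12A3 of the distal tubule and SLC22A2, a proximal transporter, gave 4 to 24 counts. In bulk tissue, fewer cells of a type and less RNA per cell cannot be told apart, which holds for every gene below.

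No probe separated late R from early bx after adjustment. With limma on these 6 libraries and Benjamini-Hochberg adjustment over all probes, 0 of 767 were called higher (0%) and 0 lower (0%) at an adjusted p of 0.05, and the smallest adjusted p was 0.327. At an unadjusted p under 0.05 there were 33 probes above zero change (4.30% of those tested) and 11 below (1.43%), 44 in all (5.74%). With scaling to the macaque reference probes instead, that split was 17 above and 23 below. With only the 617 probes averaging at least 20 counts in the fit, 34 in all had an unadjusted p under 0.05, and 4 of them lay below. Every late R library lay above every early bx library for 56 probes (7.30%), and below for 28 (3.65%). Of the 28, 14 averaged at least 20 counts. The median log2 fold change over all probes was 0.02, with 394 probes above 0 and 373 below. It was 0.54 without scaling and 0.40 with scaling to the pig reference probes, and -0.29 with scaling to the macaque ones, so changes of that size depend on the scaling. The plot of all probes by mean count shows that the probes with the smallest p lay on the higher side.

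**Figure D1:**
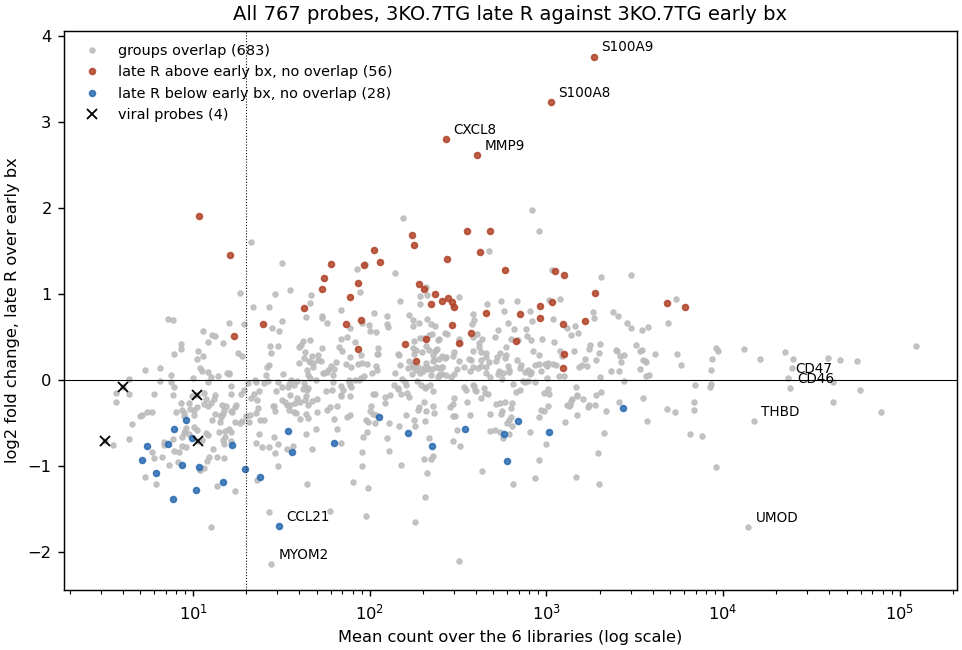
Log2 fold change of each of the 767 probes, 3KO.7TG late R over 3KO.7TG early bx, on the vertical axis against its mean count over the 6 libraries on a log axis, with a dotted line at 20 counts. Coloured points are the probes whose late R libraries all lie above (56) or all below (28) the early bx libraries, and no point passed the adjusted p of 0.05.

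The widest separation lay in probes of neutrophil and myeloid proteins. S100A9, which with S100A8 forms the calcium-binding protein calprotectin of neutrophils and monocytes, stood at 1439, 5252 and 524 CPM in late R and at 162, 108 and 91.5 CPM in early bx. S100A8 stood at 924, 2893 and 286 CPM in late R and at 93.0, 89.7 and 108 CPM in early bx. MMP9, the gelatinase B of neutrophil granules and macrophages, stood at 699, 477 and 488 CPM in late R and at 46.8, 63.0 and 222 CPM in early bx. For all 3 genes the groups did not overlap. The late R libraries were themselves far apart for calprotectin, replicate 2 being highest and replicate 3 lowest, whereas for MMP9 they were close together and early bx replicate 3 stood above the other early libraries. The log2 fold changes were 3.76 ± 0.73 for S100A9, 3.23 ± 0.72 for S100A8 and 2.61 ± 0.56 for MMP9 (SE, n = 3 each), with a limma adjusted p of 0.327 in each case. These are 13.6-fold, 9.40-fold and 6.11-fold differences of the group means on the log2 scale.

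Of the 15 measured probes of the neutrophil list, 11 lay above 0 and 4 below, with a median log2 fold change of 0.85 against 0.02 over all probes. The list ran from -1.53 to 3.76, and of its 13 members averaging at least 20 counts, 9 lay above 0. Its groups did not overlap for 6 members, all higher in late R, against 7.30% of all probes, and the same number had an unadjusted p under 0.05 on that side, against 4.30% of all probes. TREM1, a receptor that amplifies myeloid inflammatory responses, had 197, 97.1 and 76.1 CPM in late R and 25.6, 70.4 and 47.9 CPM in early bx (log2 fold change 1.34 ± 0.52, limma adjusted p = 0.829). The remaining 2 non-overlapping members were LTF and LCN2, named after their values were seen, which encode the granule proteins lactoferrin and neutrophil gelatinase-associated lipocalin, both also made by epithelia. LCN2 had 45.3, 129 and 32.8 CPM in late R and 21.9, 28.9 and 20.2 CPM in early bx. The receptors that define neutrophils more narrowly were low, and their groups overlapped: FPR1, a formyl peptide receptor, had 5 to 25 counts in late R and 6 to 8 in early bx, and CSF3R, the granulocyte colony-stimulating factor receptor, had 36.8 to 61.9 CPM in late R and 26.8 to 63.8 CPM in early bx. Both were named after their values were seen. Summed over the list, the level was 5082, 12829 and 5679 CPM in late R and 1374, 1617 and 3630 CPM in early bx. A sum follows its strongest probes. In replicate 3 of each group most of it came from members whose values are not given in this paragraph. The mean level of the list was 6.65, 6.81 and 5.81 log2 CPM in late R and 5.32, 5.64 and 5.34 log2 CPM in early bx.

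Which genes passed the adjusted threshold depended on single libraries. Without late R replicate 3, limma called CXCL8 (log2 fold change 3.97, adjusted p = 0.0067), S100A8 (4.05, adjusted p = 0.0072) and S100A9 (4.56, adjusted p = 0.0072). Without early bx replicate 3 it called MMP9 alone (3.33, adjusted p = 0.029). With late R replicate 2 left out, the log2 fold change of S100A9 was 2.89, and no probe passed. No probe passed when any of the other 3 libraries was left out. With a weight estimated per library, MMP9 alone was called (3.01, adjusted p = 0.024).

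Inflammatory chemokines and cytokines followed on the higher side. CXCL8, interleukin-8, the main neutrophil attractant, stood at 616, 565 and 52.4 CPM in late R and at 44.3, 45.2 and 27.3 CPM in early bx. Late R replicate 3 thus lay close to the early ones, and the log2 fold change was 2.80 ± 0.91 (limma adjusted p = 0.810). IL1B, interleukin-1 beta of activated myeloid cells, had 348, 379 and 537 CPM in late R and 76.8, 110 and 217 CPM in early bx (log2 fold change 1.74 ± 0.45). CCL2, the monocyte attractant MCP-1, had 349, 641 and 680 CPM in late R and 98.0, 156 and 262 CPM in early bx (log2 fold change 1.73 ± 0.47). The lowest late R library exceeded the highest early bx library for both, and each had a limma adjusted p of 0.570. CCL3/L1, a probe shared by the macrophage chemokine CCL3 and its near copy CCL3L1, which it cannot separate, had 427, 920 and 584 CPM in late R and 264, 211 and 286 CPM in early bx.

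The inflammatory cytokine list as a whole did not share a direction. Of its 41 measured members, 19 lay above 0 and 22 below, with a median log2 fold change of -0.03. Among its 27 members averaging at least 20 counts, 16 lay above 0 and the median was 0.22, against 0.11 over all such probes. Groups were apart for 6 members on the higher side (14.6% of the list against 7.30% of all probes). A further 4 were apart on the lower side, against 3.65% of all probes. On the lower side was CCL21, a lymphoid homing chemokine, at 14.7, 9.10 and 16.6 CPM in late R and 28.1, 33.4 and 72.5 CPM in early bx (log2 fold change -1.70 ± 0.53, limma adjusted p = 0.751). These are 11, 15 and 24 counts in late R against 22, 22 and 91 in early bx, and the highest viral probe of the late R libraries gave 12, 16 and 17 counts. Its receptor CCR7, named after its values were seen, was low too, at 9.80 to 16.0 CPM in late R and 24.3 to 28.1 CPM in early bx.

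Acute stress genes lay mostly on the higher side. The NF-kB and acute stress list had 17 of 25 members above 0 and a median of 0.41. Over the 22 alternative settings that median ran between 0.08, with scaling to the macaque reference probes, and 0.93, without scaling. BTG2, an antiproliferative gene induced by p53 and stress, had 412, 553 and 480 CPM in late R and 118, 139 and 296 CPM in early bx (log2 fold change 1.48 ± 0.43, limma adjusted p = 0.612). GDF15, a stress-induced cytokine of the TGF-beta family that is not in this list, had 96.4, 118 and 78.8 CPM in late R and 41.8, 37.8 and 52.7 CPM in early bx (log2 fold change 1.13). Both were apart in every library. NFKBIA, the inhibitor I-kappa-B alpha that NF-kB itself induces, lay the other way, at 555, 465 and 553 CPM in late R and 579, 753 and 895 CPM in early bx (log2 fold change -0.48). NFKBIA had a log2 fold change of 0.03 without scaling.

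**Figure D2:**
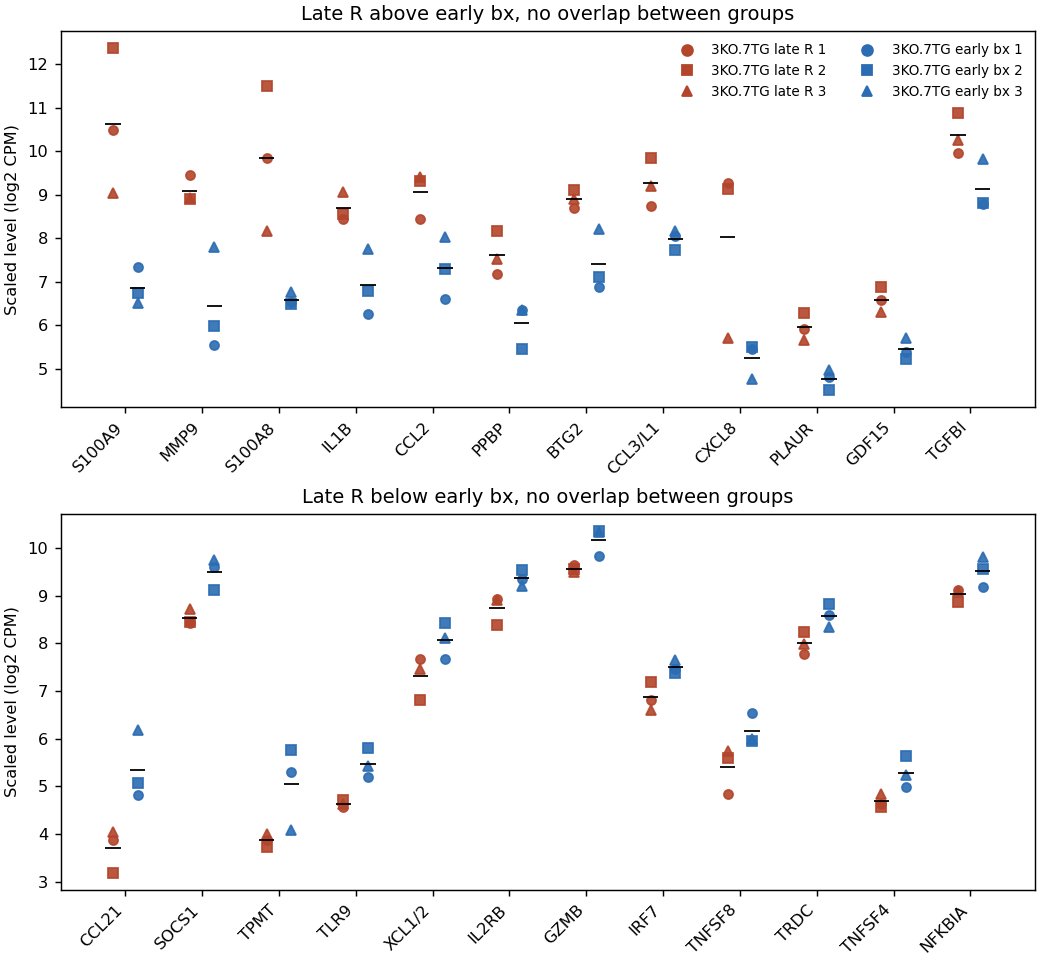
Scaled level in log2 CPM of each of the 6 libraries, 3KO.7TG late R left of 3KO.7TG early bx, for the named probes of the higher side and of the lower side. For S100A9 the late R points run between 524 and 5252 CPM and lie above all early bx points, and the widest distances between groups are on the higher side.

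All 27 measured probes of the monocyte and macrophage list lay above 0, with a median log2 fold change of 0.67. At an unadjusted p under 0.05 there were 4 of them above 0, against 4.30% of all probes. Late R libraries were all above early bx for 5 members (18.5% of the list against 7.30% of all probes). CD14, the lipopolysaccharide co-receptor of monocytes, had 1702, 2577 and 1877 CPM in late R and 1166, 818 and 1045 CPM in early bx (log2 fold change 1.01). SLC11A1, a metal transporter of the phagosome membrane, had 99.0, 210 and 77.4 CPM in late R and 49.3, 26.0 and 67.7 CPM in early bx. LILRB2, an inhibitory receptor for class I molecules on myeloid cells, had 257, 301 and 169 CPM in late R and 103, 127 and 158 CPM in early bx. These 3 were apart in every library, with log2 fold changes of 1.38 ± 0.53 for SLC11A1 and 0.88 ± 0.39 for LILRB2 and a limma adjusted p of 0.829 for both. ADAMDEC1, a protease made as monocytes become macrophages, had 201, 102 and 237 CPM in late R and 15.6, 30.4 and 166 CPM in early bx, so that early bx replicate 3 reached into the late range. The lineage markers CD68 and CD163, named after their values were seen, overlapped too: CD68 had 961 to 1225 CPM in late R and 413 to 1112 CPM in early bx. Summed over the list, the level was 24696, 49275 and 34688 CPM in late R and 19144, 17409 and 28776 CPM in early bx. The list's median stayed above 0 in all 22 alternative settings, between 0.33 and 1.20, and was 0.42 without late R replicate 2.

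Coagulation and platelet probes had a median log2 fold change of 0.53, with 8 of 12 members above 0. Groups were apart for 5 members, all on the higher side (41.7% of the list against 7.30% of all probes). Of the list's 9 members averaging at least 20 counts, 7 lay above 0, with a median of 0.97. PPBP, the platelet basic protein released from alpha granules, had 145, 288 and 183 CPM in late R and 81.8, 43.7 and 81.2 CPM in early bx (log2 fold change 1.57 ± 0.44, limma adjusted p = 0.581). PLAUR, the urokinase receptor of myeloid and injured cells, had 60.7, 78.4 and 51.0 CPM in late R and 28.1, 23.0 and 31.3 CPM in early bx (log2 fold change 1.19). VWF, von Willebrand factor stored in endothelium and platelets, had 132, 330 and 128 CPM in late R and 107, 23.0 and 66.2 CPM in early bx (log2 fold change 1.68). In each of these genes the 3 late R libraries lay above the 3 early bx libraries, for VWF with early bx replicate 1 close below. The median of the list was 0.10 without early bx replicate 1 and 0.87 without early bx replicate 3.

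The wider endothelial list was split, with 16 of 36 members above 0, 20 below and a median of -0.11, which was 0.32 without late R replicate 3 and -0.56 without early bx replicate 3. ICAM1, an adhesion molecule of activated endothelium, had 294, 177 and 244 CPM in late R and 71.8, 127 and 150 CPM in early bx (log2 fold change 1.06), with no overlap. PECAM1, the junction protein CD31, had 633, 953 and 797 CPM in late R and 332, 321 and 845 CPM in early bx, with early bx replicate 3 inside the late range. KDR, the endothelial VEGF receptor, named after its values were seen, had 84.9, 115 and 4.39 CPM in late R and 29.3, 30.4 and 10.7 CPM in early bx. Late R replicate 3 was thus the lowest of all 6 for KDR.

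Kidney parenchyma probes leaned lower and injury probes higher. In the kidney parenchyma list 2 of 17 members lay above 0 and 15 below, and the median log2 fold change was -0.63. UMOD had 11437, 3043 and 6268 CPM in late R and 39539, 29289 and 6645 CPM in early bx (log2 fold change -1.72 ± 0.70, limma adjusted p = 0.829). Its early bx replicates 1 and 2 were the highest, while early bx replicate 3 lay within the late range. AQP2, the water channel of the collecting duct, named after its values were seen, had 718, 625 and 192 CPM in late R and 3165, 1146 and 163 CPM in early bx, the same early library again being the low one. APOE, an apolipoprotein of macrophages and tubules that stands in this list, lay the other way: it had 5281, 5332 and 4866 CPM in late R and 2301, 2360 and 3920 CPM in early bx (log2 fold change 0.90), with no overlap. ASB15, another member, is known mainly from muscle. The median was -0.33 without early bx replicate 1 and -1.09 without early bx replicate 3. Summed over the list, the level was 25897, 14061 and 15370 CPM in late R and 60670, 42491 and 15023 CPM in early bx.

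The tubular injury list had 11 of 16 members above 0 and a median of 0.53. Its groups were apart for 4 members, all on the higher side (25% of the list against 7.30% of all probes). The list median was 0.18 without late R replicate 1. All 9 of its members averaging at least 20 counts lay above 0, with a median of 0.78 against 0.11 over all such probes. The list shares CCL2 with the cytokine list. TIMP1, an inhibitor of metalloproteinases released in injury and fibrosis, had 688, 2121 and 806 CPM in late R and 359, 349 and 663 CPM in early bx (log2 fold change 1.26, limma adjusted p = 0.829). The classical injury marker HAVCR1, kidney injury molecule 1, named after its values were seen, was at background with 3 to 6 counts in late R and 5 to 11 in early bx. The fibrosis list was even, with 13 members on each side and a median of -0.03. FN1, the matrix protein fibronectin, had 1900, 588 and 1188 CPM in late R and 179, 283 and 713 CPM in early bx (log2 fold change 1.73 ± 0.59), overlapping through late R replicate 2 and early bx replicate 3. TGFBI, a TGF-beta-induced matrix protein, had 1001, 1864 and 1219 CPM in late R and 439, 449 and 907 CPM in early bx (log2 fold change 1.22) and was apart. COL1A1, the main chain of type I collagen, named after its values were seen, had 18.5, 536 and 14.5 CPM in late R and 120, 125 and 113 CPM in early bx, so that a single late library stood above the early ones and the remaining late libraries below.

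The signal of macaque-marked against pig-marked reference probes differed among the libraries of each group. A species index was computed from macaque and pig reference probes, as the log2 ratio macaque over pig averaged over GUSB, SDHA, STK11IP and UBB, which the table marks for either species and whose specificity was not tested. It was -2.91, -1.45 and -1.61 in late R and -3.62, -3.11 and -1.34 in early bx. The groups overlapped, early bx replicate 3 having the highest value of all. The means were -1.99 ± 0.80 in late R and -2.69 ± 1.20 in early bx (SD, n = 3 each), a difference of 0.70 with an exact two-sided permutation p of 0.5, where 0.1 is the smallest possible. UMOD and AQP2 were highest in early bx replicates 1 and 2, which had the lowest index, and early bx replicate 3 held the highest early level of MMP9, IL1B, CCL2, ADAMDEC1, CD68, PECAM1 and FN1. In a fit with the index as a covariate, added after the data were seen, the kidney parenchyma median was -0.15, the neutrophil median 0.69 and the monocyte and macrophage median 0.46. In that fit S100A9 had a log2 fold change of 3.78, MMP9 of 2.16 and IL1B of 1.37, and no probe was called.

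**Figure D3:**
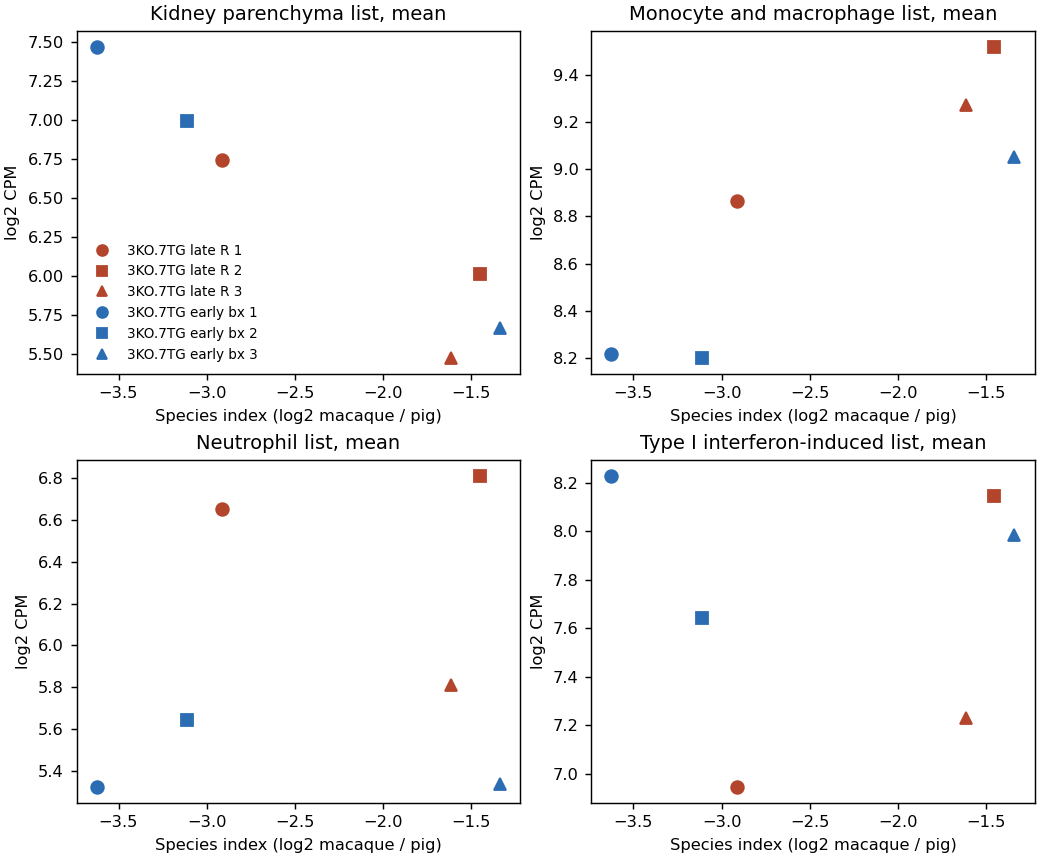
Mean level in log2 CPM of 4 gene lists (kidney parenchyma, monocyte and macrophage, neutrophil, type I interferon-induced) in the 6 libraries, on the vertical axes, against the species index (log2 of macaque over pig reference probes, averaged) on the horizontal axes, with 3KO.7TG late R and 3KO.7TG early bx in separate colours. Early bx replicate 3 (-1.34) sits among the late R libraries with the higher index, while late R replicate 1 (-2.91) sits near the other early ones.

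Type I interferon-induced probes leaned lower. In this list 16 of 17 measured members lay below 0, with a median log2 fold change of -0.42. The median was below 0 in 21 of 22 alternative settings and was 0.09 without scaling and -0.16 without late R replicate 1. IRF7, the transcription factor that amplifies type I interferon responses, had 113, 146 and 97.7 CPM in late R and 177, 167 and 200 CPM in early bx (log2 fold change -0.62) and was the single member whose groups were apart. ISG15, a ubiquitin-like antiviral protein, had 76.0, 200 and 55.8 CPM in late R and 436, 143 and 239 CPM in early bx (log2 fold change -1.37). Late R replicate 2 lay above early bx replicate 2 for ISG15. That late library was also the highest of all for IFI27, named after its values were seen, with 1385, 10159 and 1058 CPM in late R and 4959, 2268 and 2699 CPM in early bx. The mean level of the list was 6.94, 8.15 and 7.23 log2 CPM in late R and 8.23, 7.64 and 7.99 log2 CPM in early bx.

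Genes induced by interferon-gamma, the T and NK cell cytokine, were spread on both sides, with 15 of 26 above 0 and a median of 0.06, which was -0.27 without early bx replicate 1. SOCS1, the feedback inhibitor of JAK kinases, stood at 347, 351 and 422 CPM in late R and at 777, 555 and 862 CPM in early bx (log2 fold change -0.95 ± 0.35, limma adjusted p = 0.829), without overlap. The chemokines CXCL9 and CXCL10, which draw T cells and are classical interferon-gamma targets, were named after their values were seen and overlapped widely. CXCL9 had 998, 125 and 1119 CPM in late R and 134, 1648 and 1349 CPM in early bx, low in 1 library of each group. In the class II list of antigen-presenting molecules all 10 members lay above 0 with a median of 0.31, none was apart, and the median was 0.00 with scaling to macaque reference probes and -0.08 without early bx replicate 1. HLA-DRA, named after its values were seen, had 29121 to 40832 CPM in late R and 19161 to 42146 CPM in early bx. The class I list had 6 of 10 members above 0 and a median of 0.13, which was -0.16 without early bx replicate 1.

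Probes of cytotoxic lymphocytes leaned lower by small amounts. Of the 29 members of the NK and cytotoxic list, 21 lay below 0, and the median was -0.18. Groups were apart for 3 members on the lower side, against 3.65% of all probes. On the higher side they were apart for 1 (3.45% of the list against 7.30% of all probes). The median was above 0 without scaling and with pig reference scaling, reaching 0.29. GZMB, the granule protease granzyme B, had 799, 760 and 720 CPM in late R and 915, 1310 and 1289 CPM in early bx (log2 fold change -0.61). XCL1/2, a probe shared by the near-identical lymphotactins XCL1 and XCL2, had 204, 112 and 177 CPM in late R and 205, 346 and 277 CPM in early bx (log2 fold change -0.77). IL2RB, the interleukin-2 and interleukin-15 receptor beta chain of NK and T cells, is not a member of this list. It had 486, 335 and 482 CPM in late R and 654, 744 and 595 CPM in early bx (log2 fold change -0.63). All 3 were apart, XCL1/2 by the smallest margin, as late R replicate 1 nearly touched early bx replicate 1. FCGR3A/B, a probe shared by the Fc receptor CD16 of NK cells and macrophages and its near-identical neutrophil copy, lay on the other side at 1388, 3644 and 4069 CPM in late R and 644, 889 and 2888 CPM in early bx, with overlap.

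T cell probes had no common direction, with 17 of 31 above 0 and a median of 0.05, which was -0.23 without late R replicate 3. In this list 2 members were apart on the higher side (6.45% of the list against 7.30% of all probes). On the lower side 1 was apart, against 3.65% of all probes. TRDC, the constant region of the delta chain of gamma-delta T cells, had 220, 304 and 255 CPM in late R and 385, 452 and 325 CPM in early bx (log2 fold change -0.57). TNFSF8 and TNFSF4, ligands of the TNF family that act on T cells, lay lower as well, with log2 fold changes of -0.73 and -0.59. Groups were apart for TRDC, TNFSF8 and TNFSF4, of which at most 1 is a member of the list. CD8B, the CD8 beta chain, was named after its values were seen and gave 13, 23 and 20 counts in late R and 3 in each early bx library, within or close to the range of the viral probes. CD8A, the CD8 alpha chain, also named after its values were seen, had 52.5 to 83.5 CPM in late R and 54.1 to 77.2 CPM in early bx. The B cell and plasma cell list had 16 of 27 members above 0 and a median of 0.06. The median was -0.34 without late R replicate 3. Among its immunoglobulin probes, IGHG2, named after its values were seen, a heavy chain of IgG, had 2222, 4001 and 42457 CPM in late R and 1939, 7761 and 15187 CPM in early bx. Replicate 3 was the highest within each group.

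The remaining named probes of the lower side were weak. TLR9, the receptor for unmethylated DNA, had 23.6, 26.1 and 24.7 CPM in late R and 36.8, 55.6 and 43.2 CPM in early bx. TPMT, the enzyme that inactivates thiopurine drugs, had 14.7, 13.2 and 15.9 CPM in late R and 39.3, 54.1 and 17.0 CPM in early bx. Early bx replicate 3 was next to the late libraries for TPMT. Of the other lists, the Toll-like receptor list had 9 of 13 members above 0 and a median of 0.39, and the checkpoint list had 12 of 17 above 0 and a median of 0.23. Leaving out single libraries moved the Toll-like median between 0.11, without late R replicate 3, and 0.71, without early bx replicate 3, and the checkpoint median between -0.22, without early bx replicate 1, and 0.61, without early bx replicate 3. The complement list had 10 on each side and a median of -0.02, and the JAK-STAT list had 15 of 24 above 0 and a median of 0.12. The dendritic and mast cell list had 4 of 13 above 0 and a median of -0.19. The viral list, whose 4 probes show background, had a median of -0.44, and the other organ list had all 10 members below 0 and a median of -0.64, with a single member, MYL9 of smooth muscle, averaging at least 20 counts.

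**Figure D4:**
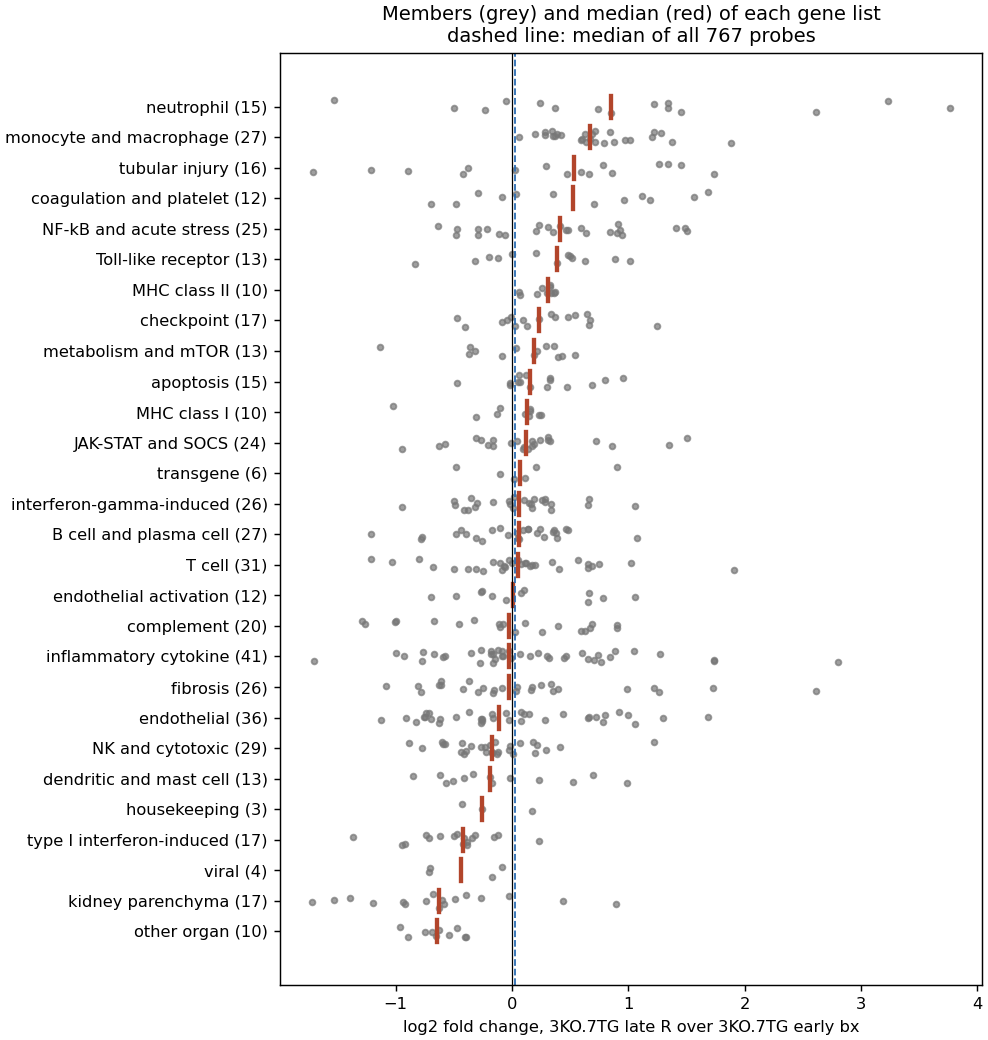
Log2 fold change, 3KO.7TG late R over 3KO.7TG early bx, of each measured member (grey) of each gene list, with the number of members in brackets, the list median in red and the median of all 767 probes (0.02) as a dashed line. The neutrophil list (median 0.85) and the monocyte and macrophage list (0.67, all 27 members above 0) lie to the right, and the kidney parenchyma list (-0.63) to the left.

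A further list held human regulators that field knowledge, not the labels, gives as transgenes of donor pigs; which of them this line carries is not stated, and CD59 in particular is known from other lines. CD46, CD47, THBD and TNFAIP3 varied more between libraries of a stage than between the stage means. CD46, a complement regulator of cell surfaces, had 34807, 17173 and 15804 CPM in late R and 38408, 20809 and 14556 CPM in early bx (log2 fold change -0.10). CD47, the signal that restrains phagocytosis, had 31623, 19089 and 16413 CPM in late R and 34098, 19043 and 14758 CPM in early bx (0.02). THBD, the anticoagulant thrombomodulin of endothelium, had 15202, 10512 and 9538 CPM in late R and 29953, 15563 and 8911 CPM in early bx (-0.48 ± 0.48). In these 3 genes replicate 1 was the highest and replicate 3 the lowest of each group, and replicate 1 also had the lowest species index. The order was the same for TNFAIP3, the NF-kB inhibitor A20, which had 6140, 3120 and 2304 CPM in late R and 4994, 2900 and 1964 CPM in early bx (0.21). CD59, an inhibitor of the membrane attack complex, had a log2 fold change of 0.11. CD55, the decay-accelerating factor that dismantles complement convertases, had 185, 516 and 202 CPM in late R and 158, 103 and 179 CPM in early bx (0.91), with late R replicate 2 far above and the remaining late libraries just above the early ones. The signs for CD46, CD47, CD59, THBD and TNFAIP3 turned in at least 1 other setting, and the limma test called none of the 6.

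The spread within each group was wide. Of the 617 probes averaging at least 20 counts, 23 stood at least 1 log2 unit above all other libraries in late R replicate 2, 9 in late R replicate 3 and 3 in late R replicate 1, against 14 in early bx replicate 1, 0 in early bx replicate 2 and 2 in early bx replicate 3. On the low side, early bx replicate 1 had 19 such probes and each of the other libraries 1 to 4. The genes named here were chosen for standing apart. Late R replicate 2 was alone high for S100A9, S100A8, CD163, COL1A1 and AREG, an epidermal growth factor ligand, and late R replicate 3 for the immunoglobulin probes IGLC1, IGHG2, IGHG4 and IGHM and for CPA3, a mast cell protease. Early bx replicate 1 was alone high for muscle-associated probes: TRDN, triadin of the calcium release complex, had 104, 15.6 and 53.1 CPM in late R and 2005, 136 and 23.4 CPM in early bx, and ANKRD1 had 51.7, 26.1 and 48.3 CPM in late R and 1049, 39.3 and 47.9 CPM in early bx. That library was alone low for IDO1, a tryptophan-degrading enzyme induced by interferon-gamma, at 3171, 1918 and 2912 CPM in late R and 666, 2095 and 6536 CPM in early bx. The first 3 principal components of the 6 libraries held 46.0%, 24.4% and 14.3% of the variance, and none separated the 3 late R from the 3 early bx libraries.

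**Figure D5:**
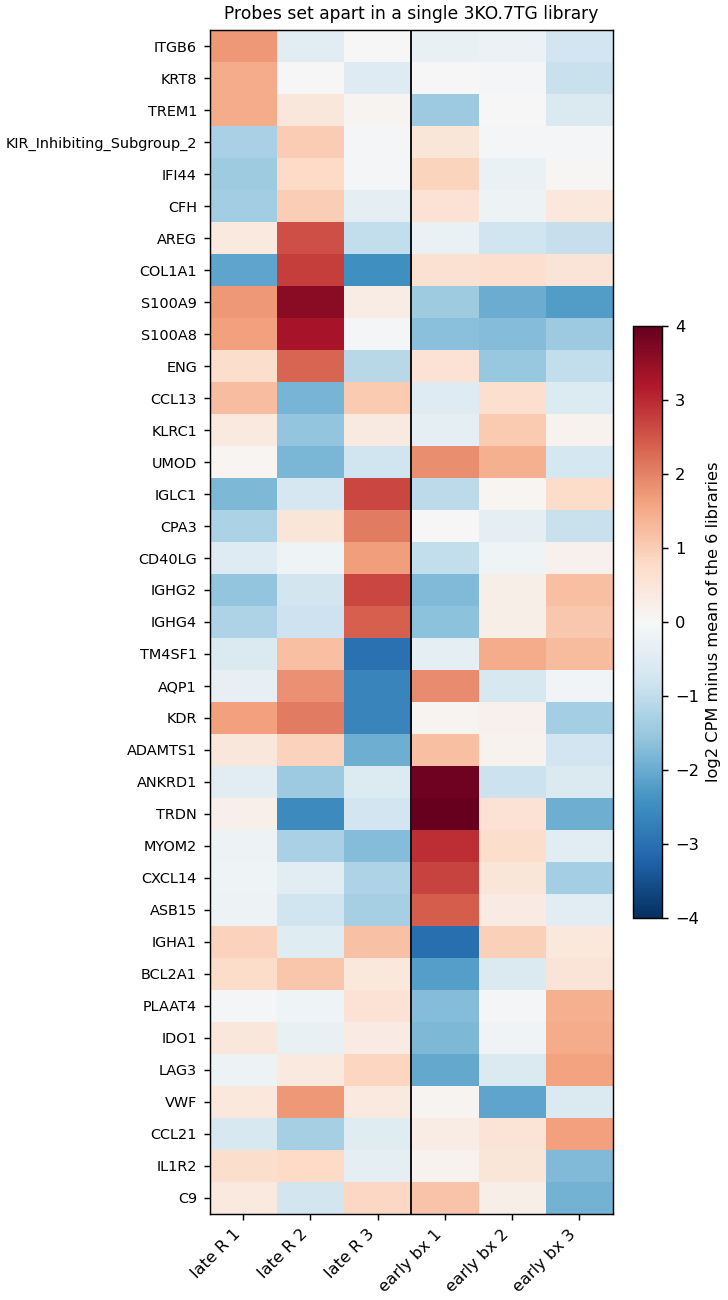
Log2 CPM minus the mean of the 6 libraries for probes that stand at least 1 log2 unit apart from all others in a single library, up to 5 per library and direction, with libraries as columns, 3KO.7TG late R left of 3KO.7TG early bx. Late R replicate 2 (23 probes above) and early bx replicate 1 (14 above, 19 below) have the most probes of this kind in all.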

How the data were processed

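The series counted total RNA of formalin-fixed, paraffin-embedded renal biopsies on the nCounter Human Organ Transplant Panel, per the labels' protocols. The authors deposited log2 values; raised back from the log, 100% were whole numbers within a relative tolerance of 1e-04, so they were read as log2 of unscaled counts. Whether 1 was added before the log, and the steps the authors took before deposit, are not given in the sources used here. The 6 libraries were fitted alone in R 4.3.3 with limma 3.58.1: voom on the recovered counts (offset 0.5), library sizes times trimmed-mean factors (trims 0.3 and 0.05), lmFit and eBayes, two-sided, Benjamini-Hochberg over 767 probes, called at 0.05. The fit was also run on simulated counts with a common dispersion for all probes, which does not show its power or error in these libraries. SE is the moderated standard error. Precision is limited by 3 libraries a group and, for low probes, by background.

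The gene lists, drawn from general knowledge of transplantation, and the members of the comparison were chosen with earlier results of these data known. Of their genes, 467 were measured and 42 are in more than 1 list. Lists are described by counts and medians, with no test. Named genes were, in each direction, the 12 of smallest unadjusted p with a mean of at least 20 counts and groups that do not overlap, all measured genes of the transgene list, and from each described list up to 4 members of largest absolute moderated t. Some of these are not printed, 1 of them being not reported here, and any further gene is said to be named after its values were seen. Whether equal replicate numbers mark paired samples is not stated. The correlations of their deviations from group means were 0.28, -0.34 and 0.48, which are too few to decide it. No replicate pair agreed within counting noise. Alternatives changed the scaling, offset, filter, weights, prior, samples in the fit, background and replicate block, and left out each library in turn.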

Additional observations from a re-analysis of the deposited data

How the results depend on the processing

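Over 89 named genes and the alternatives run, 1922 values kept their direction and their side of the threshold, 31 changed sign and 5 passed the threshold, namely CXCL8, S100A8 and S100A9 without late R replicate 3 and MMP9 without early bx replicate 3 or with a weight per library. Up to the 22 settings run for a result, the number of called probes was 0 on the lower side in each and 0 on the higher side in 19. Leaving out each library in turn gave 0 to 3 called higher, 14 to 71 probes higher and 5 to 53 lower at an unadjusted p under 0.05, and 61 to 169 higher and 38 to 142 lower without overlap; with fewer libraries a group, more probes are apart by construction. The difference in species index ran between 0.23 and 1.37.

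Probes lower at an unadjusted p under 0.05, against 11, were 17 with median centring, 18 with quantile normalization, 1 without scaling, 2 with pig and 23 with macaque reference scaling, 4 with a filter on means under 20, 57 with a weight per library, 2 with all 9 libraries and 7 with the 8 without the low-yield one. Probes higher, against 33, were 12 with pig and 17 with macaque reference scaling, 77 with a weight per library (1 of them called), 11 with all 9 libraries and 20 with 8. Probes apart on the higher side, against 56, were 30 with housekeeping, 22 with pig and 33 with macaque reference scaling. Probes apart on the lower side, against 28, were 7 without scaling, 15 with pig reference scaling and 14 with the filter. With the replicate number as a replicate block, 21 probes were lower at an unadjusted p under 0.05, and no probe was called.

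The log2 fold changes that turned sign belonged to 11 genes. With median centring they were -0.036 for CD59 and -0.13 for CD47, and with quantile normalization -0.052 for CD59. Without scaling they were 0.028 for NFKBIA, 0.41 for CD46, 0.029 for THBD, 0.012 for TAP1, 0.18 for HLA-C and 0.058 for BIRC3. With pig reference scaling they were 0.29 for CD46 and 0.011 for HLA-C. With macaque reference scaling they were -0.20 for CD59, -0.29 for CD47, -0.10 for TNFAIP3 and -0.016 for HLA-DQB1. CD47 was -0.011 with all 9 libraries and -0.031 with the viral background subtracted, and with the species index as covariate CD46 was 0.32 and HLA-C 0.00089. Leaving out each library in turn gave -0.46 to 0.27 for CD46, -0.26 to 0.35 for CD47, -0.067 to 0.26 for CD59, -0.73 to 0.070 for HLA-C, -0.10 to 0.56 for HLA-DQB1, -0.15 to 1.77 for IGHA1 and -0.19 to 0.55 for TNFAIP3. The causes were not tested.

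The limits are 3 libraries a group, with late and R, and early and bx, not separable, a species index that differs between libraries of a group, and probes of unstated species specificity. In each library 15.0% to 24.0% of probes were at or below 17 counts, the highest viral count over all 6 libraries. Small changes of low probes were therefore not detectable at this depth.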
